A study of Mus musculus with 21 samples.

Results

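The effectors of Notch signalling examined here are 10 genes that act downstream of the receptors or on them inside the cell: Hey1, Hey2, Heyl, Hes1, Nrarp, Rbpj, Maml1, Maml2, Maml3 and Numb. They were chosen by name, and each was looked up in the deposited count table after its Ensembl identifiers had been mapped to mouse symbols. All 10 were found among the 46517 genes of the table, each under a single identifier, and all 10 passed the filter on low counts that left 14324 genes for testing.

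RNA was sequenced from left ventricles of C57BL/6J mice aged 10 to 14 months. The control (Notch3+/+) group held 4 mice and the Notch3-/- group held 3 mice. In the Notch3-/- allele a lacZ sequence is inserted into the Notch3 locus, and the allele is present in every cell of the animal and not only in the vessel wall. The sex of the sequenced mice was not given in the sources used here, and 2 of the control mice, but no Notch3-/- mouse, carry labels of another style (X in place of k). Each mouse gave 3 technical libraries, made from amplified full-length cDNA without molecular identifiers, and their counts were added up per mouse. The summed totals ran from 3046326 to 4638786 counts in control mice and from 3828763 to 5167869 in Notch3-/- mice. Levels are given as CPM (counts scaled to a common total of 1000000) after adjustment by the trimmed mean of M values (TMM), as mean ± SD over mice.

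Notch receptors are cleaved after they bind a ligand on a neighbouring cell, and the freed intracellular part moves to the nucleus. Nrarp and the Hes and Hey repressors are among the targets that it then switches on. It acts with RBPJ, which binds the DNA, and with a Mastermind-like (MAML) coactivator. Notch3 is known chiefly from the smooth muscle cells and pericytes of blood vessels, where Heyl is a familiar target, whereas Hey2 is also active in ventricular muscle.

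RBPJ binds DNA at the core letters TGGGAA, and proteins of the Hes and Hey families can bind the E-box CACGTG. To show these letters in their surroundings, promoter stretches of Hey2, Maml3 and Nrarp follow, taken from RefSeq windows on GRCm38.p6 that run from 250 bases before to 50 bases after a start of transcription. Capitals mark TGGGAA, read on the opposite strand as TTCCCA, or CACGTG. Each stretch is written 5′ to 3′ on the strand of its gene and lies before the start, outside the annotated genes. The positions are chr10:30842935-30843033 for Hey2 (minus strand), chr3:52105136-52105241 for Maml3 (minus strand) and chr2:25180600-25180705 for Nrarp (plus strand).
Hey2: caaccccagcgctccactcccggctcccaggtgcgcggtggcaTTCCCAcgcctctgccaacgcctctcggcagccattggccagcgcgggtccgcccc
Maml3: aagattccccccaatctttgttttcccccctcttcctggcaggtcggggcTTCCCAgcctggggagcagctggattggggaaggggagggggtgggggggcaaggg
Nrarp: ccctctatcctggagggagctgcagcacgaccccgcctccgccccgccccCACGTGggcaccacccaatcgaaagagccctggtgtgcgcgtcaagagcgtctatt

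RefSeq promoters were matched for 7 of the 10 effectors, with 11 windows in all; Hey1, Heyl and Hes1 were not matched. Read on both strands, TGGGAA was found in 5 of the 11 windows (45.5%), which belonged to Hey2, Rbpj, Maml2 and Maml3, and in 25.6% of 32851 promoters of the same length. The pair of Rbpj windows overlap and share a match. Hey2 alone held the longer form GTGGGAA, which contains the shorter one, at 2 places, of which 1 spans the start itself; 6.38% of all promoters hold it. CACGTG was found in 1 of the 11 windows, that of Nrarp, at position -108 from the start, and in 7.15% of all promoters. None of the windows of Numb or Maml1 held either set of letters. These matches describe the windows only.

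Notch3 itself was read first, since it checks the genotype of each mouse. Its level was 57.3, 42.1, 57.6 and 61.8 CPM in control mice 1 to 4, and 6.01, 7.57 and 4.73 CPM in Notch3-/- mice 1 to 3. Every Notch3-/- mouse lay far below every control mouse. The log2 fold change was -3.16 (SE 0.23; edgeR, FDR = 0.00173), and Notch3 was the only gene of the table called at an FDR below 0.05 with a fold change of at least 1.5. The call was lost in the fit limited to the 5 mice labelled k (edgeR, FDR = 0.206) and with a hepatocyte score as covariate (edgeR, FDR = 0.125), while the log2 fold change ran from -3.52 to -3.00 over all 23 fits. Gm17276, an antisense gene that shares 488 exon bases with Notch3, had 30, 26, 29 and 16 counts in the control mice and 5, 5 and 2 in the Notch3-/- mice. Reads from the gene and its antisense partner cannot be told apart where the counting used no strand, and the use of strand was not stated.

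The marker genes of heart cells were present in all mice. The 10 cardiomyocyte markers summed to 33061, 24288, 28237 and 32183 CPM in the control mice and to 32923, 22166 and 24021 CPM in the Notch3-/- mice, with Ttn as the most abundant (the marker with the highest control CPM, not scaled by length, here and for each list). The groups overlapped in this sum. Of the 10 markers, all had log2 fold changes below 0 (median -0.22), none with an unadjusted p below 0.05 (edgeR), and 0, 9 and 8 of them lay below every control mouse in Notch3-/- mice 1 to 3. The 12 hepatocyte markers, which a ventricle should lack, were all detected in at least 1 mouse and summed to 46.1, 140, 11.1 and 22.7 CPM in the control mice. They summed to 5301, 9800 and 128 CPM in the Notch3-/- mice, with Alb as the most abundant. Liver transcripts were therefore high in Notch3-/- mice 1 and 2. In Notch3-/- mouse 3 they were far lower, and the sum lay within the control range, but 8 of the 12 markers were above every control mouse. The hepatocyte score, their mean log2 CPM, was 2.73 in that mouse and at most 2.57 in a control mouse. In Notch3-/- mice 1 and 2 it was 8.40 and 9.47, so the score largely goes with genotype. With the score as covariate, the genotype term rests mainly on Notch3-/- mouse 3 against the control mice. That fit therefore cannot separate liver RNA from genotype. No hepatocyte marker was at 0 in a Notch3-/- mouse, and 2, 0, 2 and 3 of the 12 were at 0 in control mice 1 to 4. These were Tat in 2 control mice and Cps1, Apob, Fgb, Serpina1a and Pck1 in 1 each. The part of this RNA in the values below was not tested beyond the fits named.

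No effector was called between the genotypes (0 of 10; edgeR), where 0.00698% of all tested genes were. At an unadjusted p below 0.05, 2 of the 10 effectors passed (edgeR), Numb and Hes1, beside 10.4% of all tested genes; DESeq2 called 0 of 10 and gave 2 at this p, beside 11.3% of all genes. Numb was the only effector whose genotypes did not overlap, 1 of 10, beside 8.53% of all tested genes. The log2 fold changes of 5 effectors were below 0 and those of the other 5 above it. Their median was -0.02, and that of all 14324 tested genes was -0.0028, with 50.4% of genes below 0. Both counts rest on few genes: without Notch3-/- mouse 3, 0 effectors had an unadjusted p below 0.05, where 16.3% of all genes did. Without control mouse 1, 3 or 4 or Notch3-/- mouse 1 the number was 1, beside 8.07%, 8.18%, 8.56% and 10.9% of all genes. Without control mouse 3 or 4, 2 effectors did not overlap, beside 12.4% and 13.2% of all genes in these fits. The number was also 2 without Notch3-/- mouse 1, 2 or 3, beside 17.97%, 13.9% and 26.0% of all genes. No effector was called where many other genes were (601 by DESeq2, and 936 by edgeR without Notch3-/- mouse 3). The number was 0 in the other fits too, but within the mice labelled k and with the hepatocyte covariate no gene of the table was called, and another fit had 1 mouse in a group.

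**Figure D1:**
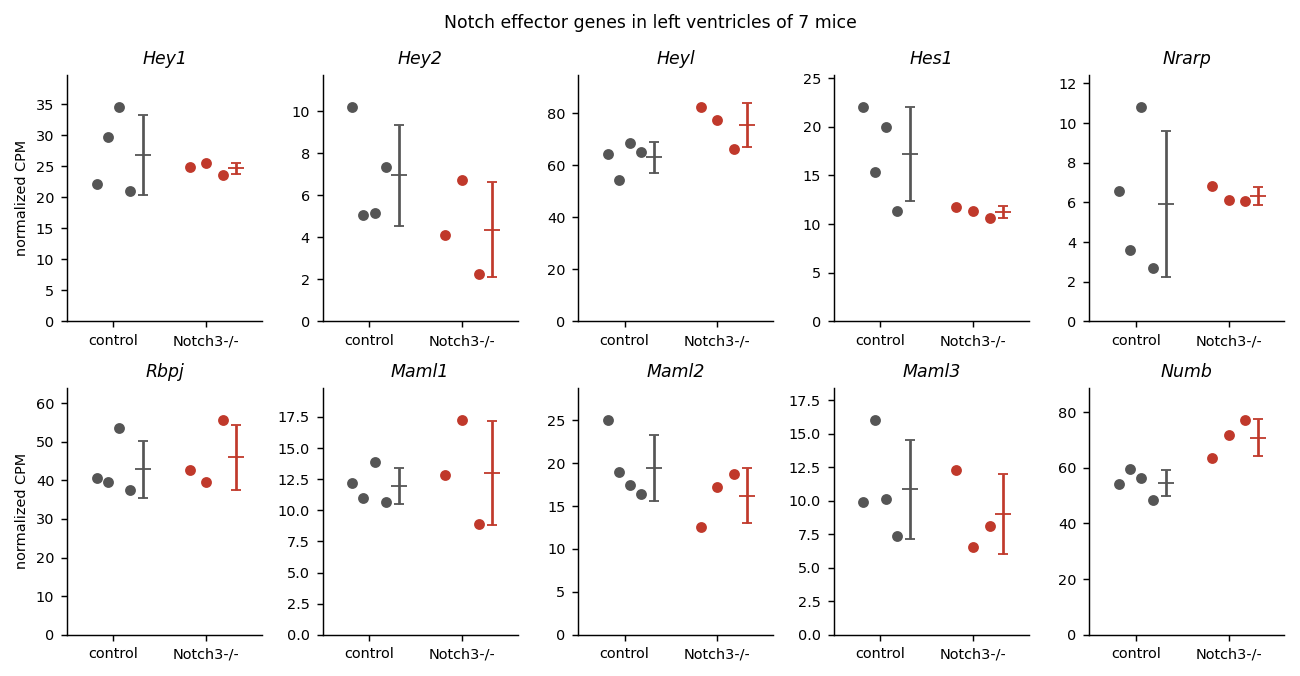
Normalized CPM of the 10 effector genes in each of 4 control and 3 Notch3-/- left ventricles (points), with mean ± SD beside them; each panel has its own scale from 0. Numb is the only gene in which all Notch3-/- mice lie above all control mice, and Hes1 in Notch3-/- mice lies at the level of control mouse 4.

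**Figure D2:**
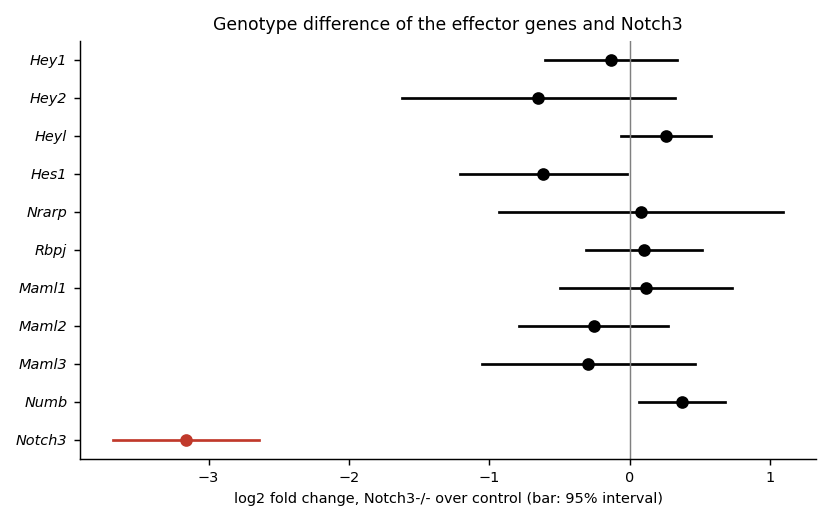
Log2 fold change of Notch3-/- over control for each effector and for Notch3, with 95% intervals from the edgeR fit. The Notch3 interval runs from -3.68 to -2.64, whereas those of the effectors cross or lie close to 0.

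Heyl (ENSMUSG00000032744, chr4:123233556-123249875, plus strand, GRCm38), a bHLH repressor and Notch target of the vessel wall, had the highest control mean per kb among the Hey and Hes effectors. Its level was 64.2, 54.4, 68.5 and 65.1 CPM in control mice 1 to 4, and 82.5, 77.6 and 66.4 CPM in Notch3-/- mice 1 to 3. Notch3-/- mice 1 and 2 lay above all control mice and Notch3-/- mouse 3 lay among them. The group means were 63.0 ± 6.06 and 75.5 ± 8.28 CPM. The log2 fold change was 0.26, with a 95% interval from -0.06 to 0.58 (edgeR, p = 0.0986, FDR = 0.561). Both mice that lay above the controls were the ones with high liver transcripts. With the hepatocyte score as covariate the log2 fold change of Heyl was 0.13 (edgeR, FDR = 1.00), and over all 23 fits the FDR of Heyl ran from 0.339 to 1.00. For Notch3-/- mouse 3 against the control mice it was 0.08; a fit with 1 mouse in a group takes its spread from the control mice and assumes that the lone mouse varies like them, so that its values are given here without a test.

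Heyl and Notch3 are known from mural cells, so the mural markers are given beside them. The 7 pericyte markers, all detected, summed to 1189, 1094, 1122 and 1160 CPM in the control mice and to 1065, 868 and 931 CPM in the Notch3-/- mice, with Rgs5 as the most abundant. Every Notch3-/- mouse lay below every control mouse in this sum. Of the 7 genes 3 had an unadjusted p below 0.05, beside 10.4% of all tested genes, and none was called (edgeR). These were Rgs5 and, chosen after their values were seen, Cspg4 and Ndufa4l2. Their log2 fold changes were -0.34, -0.63 and -0.55 (edgeR, FDR = 0.249, 0.339 and 0.396). Among the 7 pericyte markers, 6 had log2 fold changes below 0 and 1 above it. The 10 vascular smooth muscle markers summed to 1465, 1206, 1328 and 1422 CPM and to 1462, 1020 and 1263 CPM, with overlap, and Smtn, which cardiac muscle may also express, was the most abundant. Cnn1 was at 0 in 1 Notch3-/- mouse. Of the 8 that were tested, 2 had an unadjusted p below 0.05, both with lower Notch3-/- means, beside 10.4% of all tested genes. None was called (edgeR). In all, 5 of the 8 had log2 fold changes below 0 and 3 above it, with a median of -0.083. The 2 with an unadjusted p below 0.05 (edgeR) were Myh11, without overlap, and Tagln, with overlap. Myh11 was at 39.8, 20.4, 10.6 and 19.7 CPM in control and 3.28, 5.05 and 3.59 CPM in Notch3-/- mice. Both genes were chosen after their values were seen. Their log2 fold changes were -2.49 and -0.93 (edgeR, FDR = 0.118 and 0.396). In bulk tissue, fewer cells of a type and less RNA per cell cannot be told apart.

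Hey1 (chr3:8663359-8667256, minus strand), a related repressor found in endothelial cells and other Notch-active cells, had 22.1, 29.7, 34.6 and 21.04 CPM in control mice 1 to 4. In Notch3-/- mice 1 to 3 it had 24.9, 25.5 and 23.6 CPM. All 3 Notch3-/- values lay inside the control range, and their SD of 0.93 CPM was smaller than the control SD of 6.45 CPM. The log2 fold change was -0.13, with a 95% interval from -0.60 to 0.34 (edgeR, FDR = 0.874). Endothelial markers, 10 of 10 detected with Kdr as the most abundant, summed to between 1092 and 1613 CPM in control mice and to 1393, 1498 and 1457 CPM in Notch3-/- mice. The 6 arterial endothelial markers, all detected and led by Fbln5, also overlapped, at 115 to 172 CPM and at 144, 162 and 150 CPM.

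Hey2 (ENSMUSG00000019789, chr10:30832359-30842801, minus strand), which marks compact ventricular myocardium in the embryo, was read from few counts. Between 12 and 32 counts were read per mouse, so that counting error alone is wide: the 12 counts of Notch3-/- mouse 3 have an exact 95% Poisson interval from 6.20 to 20.96, which covers counting error only. The level was 10.2, 5.06, 5.18 and 7.35 CPM in the control mice and 4.10, 6.73 and 2.27 CPM in the Notch3-/- mice. Notch3-/- mice 1 and 3 lay below all control mice, and Notch3-/- mouse 2 lay among them. At -0.65 the log2 fold change was the lowest of the 10, and its 95% interval ran from -1.63 to 0.32 (edgeR, p = 0.165, FDR = 0.638). With each mouse left out it ran from -1.13 without Notch3-/- mouse 2 to -0.33 without Notch3-/- mouse 3. It was -0.41 without control mouse 1 and -1.77 with the hepatocyte score as covariate. The unadjusted p was 0.0366 without Notch3-/- mouse 2 and 0.0383 with the covariate, which largely goes with genotype (edgeR). For Notch3-/- mouse 3 against the control mice the log2 fold change was -1.58, a value from 1 mouse without a test. Over the 18 fits of Hey2 the FDR ran from 0.501 to 1.00, and the sign was below 0 in each.

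Seen together per exon length, the 3 Hey genes summed to 21.5, 20.8, 25.1 and 20.8 CPM per kb in control mice 1 to 4. In Notch3-/- mice 1 to 3 they summed to 24.6, 24.4 and 20.7 CPM per kb. The groups overlapped. Heyl made up 58.3%, 51.04%, 53.3% and 61.3% of this sum in the control mice and 65.5%, 62.1% and 62.7% in the Notch3-/- mice. The Heyl share was higher in each Notch3-/- mouse than in each control mouse, by as little as the step from 61.3% to 62.1%; this share was chosen after the values were seen and was not tested.

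Hes1 (ENSMUSG00000022528, chr16:30064384-30067796, plus strand), the founding Notch target among the Hes repressors, had 22.1, 15.4, 20.0 and 11.4 CPM in control mice 1 to 4. In Notch3-/- mice 1 to 3 it had 11.8, 11.4 and 10.6 CPM, from 43, 54 and 56 counts. The Notch3-/- mice lay close together at the low end, and control mouse 4, with 34 counts, lay among them, so the groups overlapped. Means were 17.2 ± 4.79 CPM in control and 11.2 ± 0.59 CPM in Notch3-/- hearts. This gave a log2 fold change of -0.62, with a 95% interval from -1.21 to -0.02 (edgeR, p = 0.0440, FDR = 0.476). It was below 0 in all 23 fits, from -0.88 to -0.32, and the FDR ran from 0.318 to 1.00. Within the mice labelled k it was -0.49 (edgeR, FDR = 0.789). For Notch3-/- mouse 3 alone, which had far less liver RNA than the other Notch3-/- mice, it was -0.70, a value from 1 mouse without a test.

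Nrarp (chr2:25180758-25183339, plus strand) encodes an ankyrin-repeat protein that Notch induces and that in turn limits the Notch complex. It had 6.59, 3.58, 10.8 and 2.67 CPM in the control mice and 6.83, 6.10 and 6.05 CPM in the Notch3-/- mice. The control mice spread from a low of 8 counts to a high of 46, and the Notch3-/- mice lay between them. The log2 fold change was 0.08 with a 95% interval from -0.93 to 1.09 (edgeR, FDR = 0.971), which covers changes in both directions. Its count is also uncertain in another way. The antisense gene Gm38287 shares 2051 of the 2582 exon bases of Nrarp and itself had 18, 15, 39 and 6 counts in the control mice and 22, 21 and 27 in the Notch3-/- mice.

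RBPJ is the DNA-binding centre of the complex. Rbpj (chr5:53466152-53657362, plus strand) had 40.5, 39.6, 53.6 and 37.4 CPM in control mice 1 to 4 and 42.6, 39.5 and 55.6 CPM in Notch3-/- mice 1 to 3. A high mouse was seen in each group, control mouse 3 and Notch3-/- mouse 3, and the remaining mice lay between 37.4 and 42.6 CPM. Means were 42.8 ± 7.35 and 45.9 ± 8.52 CPM, and the log2 fold change was 0.10 with a 95% interval from -0.31 to 0.51 (edgeR, FDR = 0.891). With the hepatocyte score as covariate it was 0.52 (edgeR, FDR = 1.00), and for Notch3-/- mouse 3 against the control mice, as 1 mouse without a test, 0.38. The sign turned without Notch3-/- mouse 3, at -0.069, and in technical libraries 1 alone, at -0.14 (edgeR, FDR = 0.916 and 0.998). The pseudogene copies Rbpj-ps1 and Rbpj-ps3 had 0 counts in every mouse.

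The Mastermind-like coactivators bridge RBPJ and the receptor fragment to histone acetyltransferases. Maml1 ran from 10.7 to 13.9 CPM in control and from 8.89 to 17.2 CPM in Notch3-/- mice. Maml2 ran from 16.4 to 25.0 CPM and from 12.6 to 18.7 CPM. Maml3 ran from 7.35 to 16.0 CPM and from 6.52 to 12.3 CPM. The genotypes overlapped for each of them. Their log2 fold changes were 0.12, -0.26 and -0.29, with FDRs of 0.918, 0.748 and 0.810 (edgeR). With each mouse left out, Maml1 ran from -0.15 to 0.33, Maml2 from -0.38 to -0.11 and Maml3 from -0.57 to -0.040. The hepatocyte covariate gave -0.52, -0.091 and -0.61 for these genes, and -0.21 for Hey1, -0.68 for Hes1 and 0.32 for Nrarp, each with an FDR of 1.00 (edgeR). Per exon length the 3 genes summed to 6.14 ± 0.76 CPM per kb in control (n = 4) and 5.66 ± 0.61 CPM per kb in Notch3-/- hearts (n = 3). Overlaps were minor for this family: Gm26542, antisense to Maml1 over 135 exon bases, had 4 to 19 counts in a mouse, and the microRNA gene Gm22643, which shares 101 exon bases with Maml2, had 0 to 2.

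Numb (ENSMUSG00000021224, chr12:83794034-83921934, minus strand) encodes an adaptor that draws Notch receptors into endocytosis and restrains the pathway. Its level was 54.002, 59.4, 56.5 and 48.4 CPM in control mice 1 to 4, and 63.7, 71.7 and 77.2 CPM in Notch3-/- mice 1 to 3. Every Notch3-/- mouse lay above every control mouse, and Notch3-/- mouse 3, with the least liver RNA of the 3, was the highest. The means were 54.6 ± 4.66 and 70.8 ± 6.78 CPM, a log2 fold change of 0.38, with a 95% interval from 0.07 to 0.68 (edgeR, p = 0.0214, FDR = 0.376), so that the gene was not called. With a fold change of 1.30 it would also have missed the fold threshold. The hepatocyte covariate gave 0.46 (edgeR, FDR = 1.00), the mice labelled k 0.43 (edgeR, FDR = 0.734), and Notch3-/- mouse 3 against the control mice, as 1 mouse without a test, 0.50; the FDR over all 23 fits ran from 0.180 to 1.00.

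The technical libraries of a mouse differed widely from each other. For Numb the SD among the 3 libraries of a mouse, pooled over mice, was 17.5 CPM, while the library means had an SD of 1.70 CPM among control and 8.13 CPM among Notch3-/- mice, and the summed levels 4.66 and 6.78 CPM. For Hes1 the SD was 7.11 CPM among libraries and 5.55 and 1.72 CPM among library means, and for Heyl 16.3 CPM beside 7.41 and 5.17 CPM. For Nrarp, with the widest spread among libraries relative to its level (53.1%), the SD was 3.06 CPM among libraries and 3.58 and 0.81 CPM among the library means of control and Notch3-/- mice. For Rbpj it was 9.06 CPM beside 7.13 and 9.99 CPM. Taken by technical replicate number, the Numb log2 fold change was -0.22 in libraries 1, 0.34 in libraries 2 and 0.98 in libraries 3. The summed difference of Numb was thus not shared by all 3 sets of libraries. For Hes1 the values were -0.55, -0.88 and -0.32, below 0 in each set. For Heyl they were -0.19, 0.55 and 0.25.

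**Figure D3:**
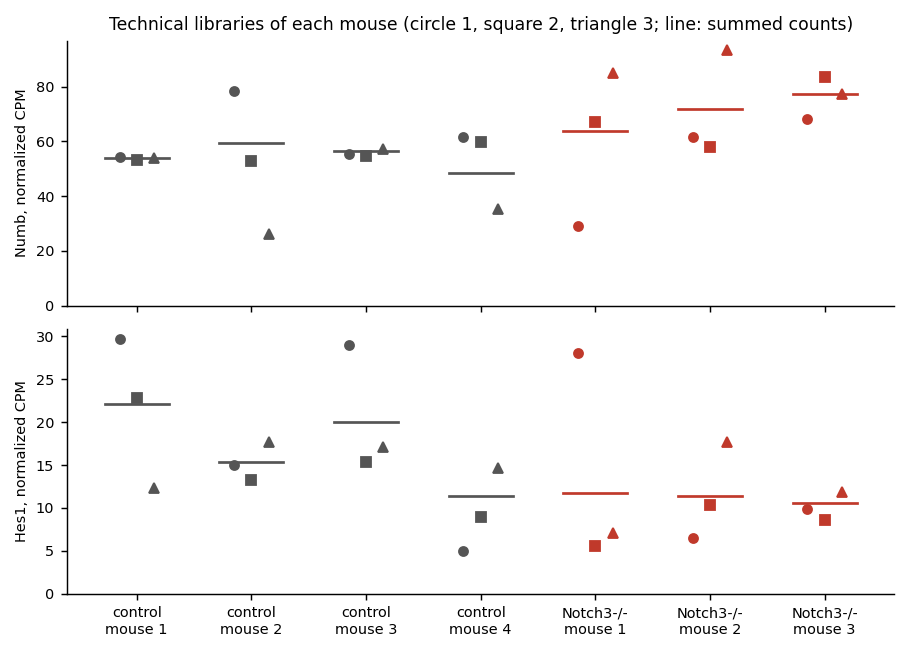
Normalized CPM of Numb (top) and Hes1 (bottom) in the 3 technical libraries of each mouse (circle 1, square 2, triangle 3), with the level from the summed counts as a line. The libraries of a mouse spread widely, and libraries 1 of Numb lie low in Notch3-/- mouse 1 and high in control mouse 2.

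Levels of different genes were compared per kb of merged exon length in control mice. Numb stood first at 13.9 ± 1.19 CPM per kb (n = 4), followed by Heyl at 12.3 ± 1.19. The control mice of these neighbours overlapped. Hes1 at 8.44 ± 2.35 and Hey1 at 8.22 ± 1.97 CPM per kb came next and could not be ordered either. The lowest control mouse for Hey1 was above the highest for the gene after it, Rbpj, at 3.36 ± 0.58 CPM per kb, and this was the only step of the 9 at which the ranges of neighbours did not overlap. Below it lay Maml2 at 2.95 ± 0.59, Nrarp at 2.29 ± 1.42, Maml1 at 2.16 ± 0.26, Hey2 at 1.51 ± 0.53 and Maml3 at 1.03 ± 0.35 CPM per kb. In Notch3-/- mice Hes1 stood at 5.51 ± 0.29 CPM per kb, below Hey1 at 7.55 ± 0.28. The annotated exons of Rbpj are 12750 bases long but its longest transcript is 5485 bases, so its level depends on the length used. Per kb of longest transcript Hey1 ran from 8.68 to 14.3 and Rbpj from 6.82 to 9.78 CPM per kb, and these ranges overlapped. The steps without overlap were then that from Rbpj, at a mean of 7.80, to Maml2, at 3.04, and that from Maml1 to Maml3, while 3 effectors took another place. Read within each mouse, a comparison chosen after the values were seen, Hey1 lay above Rbpj in all 4 control mice with either length. Heyl lay above Hes1 in all 4 per kb of exon and in 3 of 4 per kb of longest transcript.

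**Figure D4:**
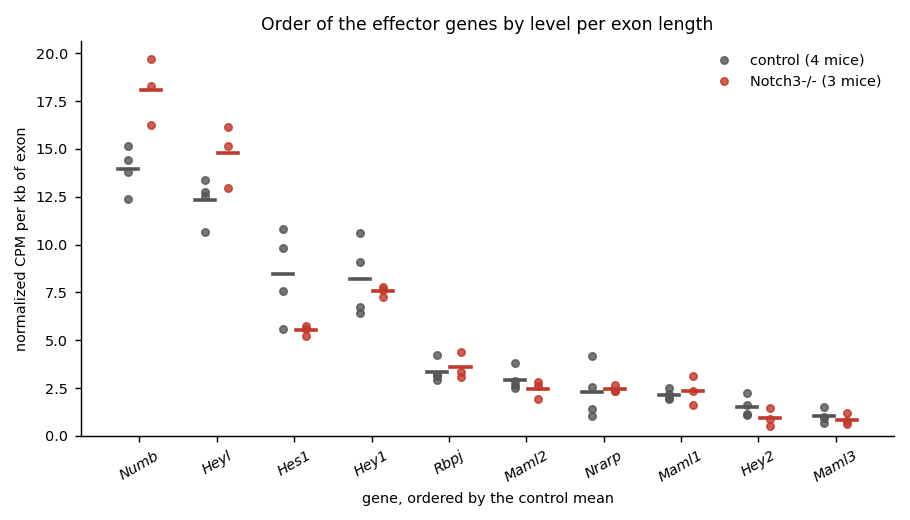
Normalized CPM per kb of exon for each effector in control (grey, 4 mice) and Notch3-/- (red, 3 mice) hearts, ordered by the control mean; points are mice and short lines are means. On this length a gap separates Hey1, at a control mean of 8.22, from Rbpj, at 3.36; with longest transcripts their ranges overlap.

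Around the effectors, 80 other genes of the pathway were read in 10 lists. Of these, 71 were tested, 1 was called lower (Notch3) and none was called higher (edgeR). At an unadjusted p below 0.05, 7 of the 71 passed, 4 higher and 3 lower, beside the 10.4% of all genes; their median log2 fold change was 0.02. The genotypes did not overlap in 8 of the 71, beside the 8.53% of all genes. Without Notch3-/- mouse 3 the number called was 2, Notch3 and Psen2, and it was 0 within the mice labelled k and with the hepatocyte covariate.

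Among the receptors, Notch3 had the highest control level per kb, and the 3 others were not called, with log2 fold changes from -0.07 to 0.02. Of the 5 ligands 4 were tested and none had an unadjusted p below 0.05; Dll4, an endothelial ligand with the highest level per kb, had 57.6, 56.3, 72.5 and 68.5 CPM in control and 74.6, 86.4 and 65.4 CPM in Notch3-/- mice. Dll4 overlapped between the genotypes (log2 fold change 0.24; edgeR, FDR = 0.619). All 10 receptor processing genes were tested, 1 of them with an unadjusted p below 0.05. This was Psen2, a catalytic subunit of gamma-secretase, with 33.6, 35.2, 40.5 and 44.1 CPM in control and 86.9, 155 and 26.5 CPM in Notch3-/- mice. Psen2 was high in Notch3-/- mice 1 and 2, the mice with high liver transcripts, and lowest of all in Notch3-/- mouse 3 (log2 fold change 1.22; edgeR, FDR = 0.373). Its FDR was 0.00133 without Notch3-/- mouse 3 and 1.00 with the hepatocyte covariate, the ends of its range. Ncstn, the scaffold subunit of the same protease and the most abundant of the list per kb, had a log2 fold change of 0.02 (edgeR, FDR = 0.973).

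Of the 5 glycosylation genes, Poglut1, which adds glucose to the receptor repeats, had an unadjusted p below 0.05. Poglut1 lay at 27.0, 37.5, 23.1 and 31.7 CPM in control and 40.7, 33.7 and 49.4 CPM in Notch3-/- mice, with overlap (log2 fold change 0.47; edgeR, FDR = 0.481). Rfng, a Fringe glycosyltransferase with the highest level per kb of the list, did not overlap, though its highest control mouse had 45.4 and its lowest Notch3-/- mouse 45.6 CPM (log2 fold change 0.24; edgeR, FDR = 0.606). Of 12 genes of ubiquitin and turnover, 11 were tested and 2 passed the unadjusted threshold, both Deltex genes. Dtx4 had 9.55, 3.37, 12.2 and 10.7 CPM in control and 18.9, 15.8 and 19.5 CPM in Notch3-/- mice, and Dtx3l had 34.2, 37.1, 44.9 and 45.4 CPM and 45.9, 66.5 and 54.1 CPM. For both, every Notch3-/- mouse was higher than every control mouse, and neither was called (log2 fold changes 1.02 and 0.46; edgeR, FDR = 0.376 and 0.410). Dtx3, the most abundant of the list per kb, had a log2 fold change of -0.34 (edgeR, FDR = 0.600).

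The partners of RBPJ gave similar counts. Of 16 corepressor genes 15 were tested, 11 with log2 fold changes below 0, and 1 passed the unadjusted threshold. This was Hdac2, a histone deacetylase, with 42.1, 53.1, 38.6 and 48.8 CPM in control and 36.1, 25.2 and 28.7 CPM in Notch3-/- mice. All Notch3-/- mice lay below all control mice for Hdac2 (log2 fold change -0.61; edgeR, FDR = 0.277). Ctbp1, the most abundant corepressor per kb, had a log2 fold change of -0.26 (edgeR, FDR = 0.577). Of 7 coactivator genes none passed; Kat2a, an acetyltransferase and the most abundant per kb, had a log2 fold change of 0.07 (edgeR, FDR = 0.926).

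Related factors and further targets complete the lists. Of 8 other Hes and Hey-like factors 4 were tested, and Hes3 had 0 counts in every mouse. Bhlhe41, a relative of the Hes proteins, had 73.1, 61.3, 57.6 and 37.4 CPM in control and 32.2, 28.8 and 52.2 CPM in Notch3-/- mice. It was lowest in Notch3-/- mice 1 and 2 and overlapped (log2 fold change -0.60; edgeR, FDR = 0.479). Bhlhe40, the most abundant per kb, had a log2 fold change of 0.27 (edgeR, FDR = 0.857). None of 9 other known targets passed the unadjusted threshold; Pdgfrb, a receptor of mural cells and the most abundant per kb, had a log2 fold change of -0.13 (edgeR, FDR = 0.843). Of 4 genes that Hey factors repress in the heart 2 were tested, and Nppa, the atrial natriuretic peptide gene, ran from 27.0 to 160 CPM in control and from 42.6 to 190 CPM in Notch3-/- mice (log2 fold change 0.51; edgeR, FDR = 0.835).

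**Figure D5:**
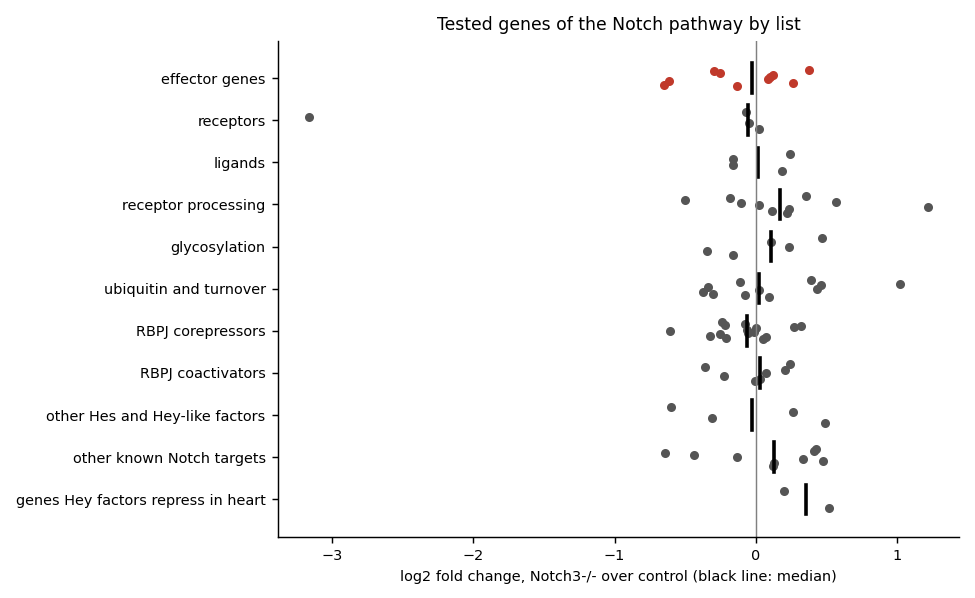
Log2 fold change of Notch3-/- over control for every tested gene of the effectors (red) and of 10 other lists of the pathway (grey), with the median of each list as a black line. Notch3, at -3.16, stands apart, and the medians of all lists lie between -0.06 and 0.35.

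The remaining marker lists stand beside these values. The 8 fibroblast markers, all detected and led by Gsn, summed to 2748, 2363, 2127 and 2179 CPM in control and to 2326, 2056 and 2236 CPM in Notch3-/- mice. Of these 8, 3 had an unadjusted p below 0.05, beside 10.4% of all tested genes, and none was called (edgeR). They were Col1a1 (log2 fold change 0.62), which was higher in every Notch3-/- mouse than in every control mouse, Dcn (-0.26), which was lower in every one, and Col1a2 (0.41), with overlap; all 3 were chosen after their values were seen. The 8 macrophage markers, all detected and led by Lyz2, summed to 554, 485, 577 and 534 CPM and to 576, 543 and 624 CPM. Of the 8 macrophage markers 1 had an unadjusted p below 0.05, beside 10.4% of all tested genes, and none was called (edgeR). This was Mrc1, chosen after its values were seen, which was higher in every Notch3-/- mouse than in every control mouse. Log2 fold changes were above 0 for 6 of the 8 and below 0 for 2. The groups overlapped in both sums. Cholangiocyte markers, of a second liver cell type, were led by Sox9, which other tissues share, and summed to between 8.22 and 21.7 CPM in control and to 21.3, 55.9 and 18.7 CPM in Notch3-/- mice. All 6 were detected in some mouse. Krt19 was at 0 in 2 control mice, Epcam in 3 control and 2 Notch3-/- mice, and Cftr in 3 control mice and 1 Notch3-/- mouse.

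For the effectors with the lowest p, Numb and Hes1, the genes with the most similar profile over the 7 mice were picked out of 12471 genes, by Pearson r of log2 CPM. Numb was followed most closely by B930094E09Rik (r = 0.977), Trip12, a ubiquitin ligase (r = 0.966), and Tent2, a poly(A) polymerase (r = 0.965). Hes1 was followed most closely by Smim4 (r = 0.993), Nfatc1, a transcription factor (r = 0.990), and Hmgb1, a chromatin protein (r = 0.979). The Spearman coefficients ran from 0.857 to 1.00, and r ran from 0.916 to 0.983 without the 2 mice farthest from the median of the effector. Values this high are picked as the best of many over few mice, and they describe these mice only.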

How the data were processed

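Whole-number counts per Ensembl gene and library were deposited by the authors; the labels name mm10 and CASAVA, and the aligner, the counter and its use of strand are not given in the sources used here. The 92 ERCC lines, with 34 counts in all, were left out. Of 46517 genes, 46005 were found in GENCODE vM21 (GRCm38). The 3 libraries of a mouse were summed, and the 7 mice were compared by genotype in edgeR 4.0.16 (R 4.3.3) by its quasi-likelihood test, after scaling by TMM and filterByExpr; genes were called at a Benjamini-Hochberg FDR below 0.05 and a fold change of at least 1.5. Standard errors and 95% intervals were derived from the F statistic. The other fits used DESeq2 1.42.0 and limma 3.58.1, other filters and scalings, subsets of mice or libraries, thinned counts, or a hepatocyte score (the mean log2 CPM of 12 markers) as covariate. The code was tested on simulated data. Motifs were searched in RefSeq promoters.

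The 10 effectors, the 10 pathway lists and the 9 marker lists were chosen with earlier results of these data known. Named genes were the effectors and Notch3; from each pathway list the genes with an unadjusted p below 0.05 (at most 3) and the one with the highest control CPM per kb; the most abundant gene of each marker list and markers at 0 in some mouse; the 3 genes most similar to each of 2 effectors; and overlapping genes or copies of effectors. Outside this rule, smooth muscle, pericyte, fibroblast and macrophage markers with an unadjusted p below 0.05 were named after their values were seen. Hes3, at 0 counts in every mouse, was also named outside it.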

Additional observations from a re-analysis of the deposited data

How the results depend on the processing

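No effector was called in any of the 23 fits, of which 2 called no gene at all and 1 had a lone mouse, assumed to vary like the control mice. The log2 fold changes of Hes1 and Hey2 were below 0 in each fit that tested them. Of 211 log2 fold changes of effectors in other fits than the one reported, 193 kept their sign and 18 did not; none of these passed an FDR of 0.05, and the cause was not tested. In technical libraries 1 alone the sign turned for Heyl (-0.19), Rbpj (-0.14) and Numb (-0.22), in libraries 2 for Nrarp (-0.057), and in libraries 3 for Maml1 (-1.21), Maml2 (0.23) and Maml3 (0.23). Within the mice labelled k it turned for Nrarp (-0.13) and Maml3 (0.022). Maml1 turned with the hepatocyte covariate (-0.52), in Notch3-/- mouse 3 against the control mice (-0.42) and in limma-voom on the 21 libraries without a block (-0.39). With each mouse left out, the ranges were -0.23 to 0.0028 for Hey1, -0.14 to 0.56 for Nrarp, -0.069 to 0.22 for Rbpj and -0.15 to 0.33 for Maml1.

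Technical replicate numbers 1 to 3 are shared by both genotypes. Deviations of same-numbered libraries, averaged within each genotype, correlated at -0.06, -0.02 and -0.05 between the genotypes over the tested genes. Such a correlation cannot show whether a smaller set of genes shifts together in libraries of the same number, which was not tested. With that number as a replicate block in limma-voom, 62 genes were called in place of 65 without it, 1 of the 8 effectors tested had an unadjusted p below 0.05 in both fits, beside 12.9% and 13.3% of all genes, no effector was called in either, and Maml1 stood at -0.13.

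Over all genes, 1 was called, and the count was 639 with every gene of at least 1 count kept, 601 with DESeq2, 48, 39 and 77 in technical libraries 1, 2 and 3 alone, 0 within the mice labelled k and 0 with the hepatocyte covariate. It ran from 1 to 936 with each mouse left out, the highest without Notch3-/- mouse 3. Effectors with an unadjusted p below 0.05 numbered 1 with the lowest filter, limma-voom on 7 mice, libraries 2, libraries 3 and the hepatocyte covariate (8.42%, 7.71%, 10.4%, 8.83% and 4.38% of all genes), 0 in libraries 1 and within the mice labelled k (6.61% and 6.38%), and from 0 to 2 with each mouse left out. Effectors without overlap numbered 0 in libraries 1 (6.16% of all genes), 2 in libraries 2 and after thinning to the smallest total (8.84% and 8.73%), 5 for Notch3-/- mouse 3 against the control mice, where 1 mouse forms a group and 41.1% of all genes did not overlap, and from 1 to 2 with each mouse left out. Other pathway genes called numbered 0 within the mice labelled k and with the hepatocyte covariate, and from 1 to 2 with each mouse left out; fits for these genes were chosen after seeing the data. Steps without overlap in the order of levels numbered 2 with longest transcripts, without TMM factors and over all 7 mice, in place of 1, and from 2 to 4 with each control mouse left out. Read within each control mouse, which was chosen after seeing the data, 2 steps held in all 4 mice per kb of exon and 3 with longest transcripts.

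Counts were lowest for Hey2, Nrarp, Maml1 and Maml3, with as few as 8 in a mouse. Hey2 did not pass the filter in the technical libraries alone or in either fit on 21 libraries, nor did Nrarp in libraries 1, in the fits on 21 libraries and with at least 10 counts asked of every mouse. Labels of the X style occur in control mice only, but other control mice are labelled k like the Notch3-/- mice. What the X labels mark is not stated, and it was not tested beyond the fit within the mice labelled k.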
